A study of Mus musculus with 72 samples.

Results

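Islets of DBA/2J mice after 5 days on a high-fat diet (HFD) were compared with islets of DBA/2J mice on regular chow (RC) at the same day, 4 libraries against 4, over all genes of the deposited expression table. These 8 libraries, chosen by their strain, diet and day labels, are 8 of the 69 analysed libraries of a study of 3 inbred strains, namely DBA/2J, BALB/cJ and C57BL/6J, on 2 diets for 3 durations (5, 13 and 33 days). All mice were males and 8 weeks old per the labels. No allele, transgene or drug is named for any group, and the composition of the diets is not given in the sources used here. Islets were digested out of the pancreas with Liberase, picked by hand, and cultured for a night before their RNA was extracted, so every library reports on RNA after a night away from the diet. Each library held 120 to 150 islets of 1 mouse, and the p-values therefore measure the spread between mice. Strain-matched groups at day 13 and day 33, and the day 5 groups of C57BL/6J and BALB/cJ, were used to ask where the DBA/2J response at day 5 differed.

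Islets are small endocrine organs in the pancreas. Their beta cells secrete insulin and amylin, alpha cells glucagon, delta cells somatostatin and PP cells pancreatic polypeptide, and they are threaded by capillaries, pericytes, stellate cells and macrophages, with acinar and ductal tissue around them. Beta cells take up glucose, metabolise it and close ATP-sensitive potassium channels, which opens calcium channels and releases insulin granules. A diet rich in fat raises the demand for insulin, and islets are known to answer over time with more secretion, altered lipid handling, stress responses and, in rodents, beta-cell replication. DBA/2J is an inbred strain long used in diabetes research.

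The islet label was checked against insulin transcripts, and the strain and diet labels were not checked in this way. The insulin genes Ins1 and Ins2 together took 16.6%, 17.4%, 22.3% and 21.4% of the normalised counts in HFD replicates 1 to 4, and 15.5%, 16.8%, 16.5% and 15.7% in RC replicates 1 to 4. Levels are log2 CPM, the log2 of read counts scaled to a common library size, and changes are HFD minus RC on that log2 scale with their standard error. Between 12984004 and 30520111 reads fell in the 14604 genes of the table in each of the 8 libraries, so counting error was small for all but the rarest transcripts. Replicates of 1 group differed by more than counting error, with a chi-square per degree of freedom of 4.81 to 63.7 over the pairs of replicates. HFD replicates 3 and 4 had the highest scores on the first principal component of the 8 libraries, which carried 33.4% of their variance. These replicates scored 38.1 and 18.1, HFD replicates 1 and 2 scored 2.8 and 1.5, and the RC replicates lay between -22.9 and -5.6. HFD replicate 4 was no farther out than RC replicates 1 and 4, at -19.8 and -22.9. Counts of calls are also given without HFD replicates 3 and 4, as is the median of a gene list where it changed sign or moved widely.

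After 5 days of HFD, DBA/2J islets had higher levels of a small group of GC-rich transcripts, among them Ankrd13b, Gps2, Fev, Pik3r2 and Gstp1, and lower levels of a larger group of long, AT-rich transcripts, among them Bmpr2, Sirt1, Rc3h1, Tead1 and Clock. Of 14604 genes, 80 passed an adjusted p of 0.05 (limma with Benjamini-Hochberg adjustment), which is 0.548% of those tested. The 25 that rose are 0.171% and the 55 that fell are 0.377%. The changes were modest, between 0.25 and 1.25 in size on the log2 scale, and the 80 adjusted p-values lay between 0.0384 and 0.0485, close under the threshold. At an unadjusted p under 0.05 there were 2031 genes higher and 1864 lower. The 4 HFD values did not overlap the 4 RC values, on the higher side, for 851 genes (5.83%), and on the lower side for 856 (5.86%); of the 80 called genes, 65 had groups that did not overlap.

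The number of calls depended on single libraries. Without HFD replicate 3, HFD replicate 4, RC replicate 1, RC replicate 2 or RC replicate 4, in turn, 0 genes passed, although 1796, 2932, 2884, 4015 and 3041 genes still had an unadjusted p under 0.05. Without RC replicate 3 there were 40 calls, without HFD replicate 1 there were 1436 and without HFD replicate 2 there were 1657 (993 higher and 664 lower). With HFD replicates 3 and 4 both left out, 0 genes passed and 749 had an unadjusted p under 0.05. Every one of the 80 called genes kept its direction in each of these sets of libraries, with a median size of 0.45 in all 8 libraries and 0.31 without HFD replicates 3 and 4. The 80 were called from these same libraries, so their kept direction was not a separate test. For the 65 with groups that did not overlap, leaving libraries out cannot change the direction. A fit to the 8 libraries alone, which takes the spread from them and not from all 69, also gave 0 calls and 3604 genes at an unadjusted p under 0.05. The split into 25 higher and 55 lower became 25 and 91 when each library was centred on its median.

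Base composition is the feature that the called genes shared most visibly, so a stretch of coding sequence is shown for the 3 genes of lowest p in each direction among those named by the rule for named genes, which does not hold every call. Each is 90 bases of the exon that holds the middle of the coding sequence, 5′ to 3′ on the strand of the gene, from GRCm38 with the exons of GENCODE mouse release 21. Capitals mark G and C.
Ankrd13b, rose, exon 10 of 16, chr11:77473301-77473390, minus strand: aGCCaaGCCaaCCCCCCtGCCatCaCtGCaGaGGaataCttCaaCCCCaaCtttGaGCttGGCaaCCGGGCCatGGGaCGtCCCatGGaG
Gps2, rose, exon 7 of 11, chr11:69915663-69915752, plus strand: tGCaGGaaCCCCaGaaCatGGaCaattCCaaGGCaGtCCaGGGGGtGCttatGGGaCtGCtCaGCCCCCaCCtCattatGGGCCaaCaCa
Gstp1, rose, exon 5 of 7, chr19:4036695-4036784, minus strand: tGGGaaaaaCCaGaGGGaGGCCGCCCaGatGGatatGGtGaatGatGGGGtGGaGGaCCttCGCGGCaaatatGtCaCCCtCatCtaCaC
Arl6ip6, fell, exon 1 of 4, chr2:53192278-53192367, plus strand: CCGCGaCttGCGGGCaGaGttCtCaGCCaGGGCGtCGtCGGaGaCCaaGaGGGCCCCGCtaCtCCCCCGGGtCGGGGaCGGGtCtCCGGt
Rnf180, fell, exon 4 of 8, chr13:105250044-105250133, minus strand: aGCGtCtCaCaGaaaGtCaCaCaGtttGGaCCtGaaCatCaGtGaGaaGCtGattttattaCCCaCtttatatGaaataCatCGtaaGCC
Bmpr2, fell, exon 11 of 13, chr1:59863822-59863911, plus strand: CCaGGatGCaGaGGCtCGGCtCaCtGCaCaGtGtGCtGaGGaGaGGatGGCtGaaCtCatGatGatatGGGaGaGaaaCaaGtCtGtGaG

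The windows do not separate by their own GC content, which was 58.9%, 56.7% and 54.4% in the genes that rose and 72.2%, 40% and 53.3% in those that fell. The 3′ untranslated regions did separate, at 59.1% GC for Ankrd13b, 53.9% for Gps2 and 42% for Gstp1, against 31.4% for Arl6ip6, 31.6% for Rnf180 and 35.3% for Bmpr2. Over all protein-coding calls with annotated parts, the median GC content of the coding sequence was 57% in the 25 genes that rose, 46.9% in 53 that fell and 53.1% over 13307 genes. The median GC content of the 3′ untranslated region was 53.2%, 35.9% (52 genes) and 44.5% (13031 genes). The gap between risers and fallers was thus wider in the 3′ untranslated region than in the coding sequence.

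The named genes that rose in the HFD islets included transcription cofactors, lipid and mitochondrial enzymes, a detoxifying enzyme and parts of ubiquitin ligases. Ankrd13b (GRCm38 chromosome 11, 77470485 to 77489678), an ankyrin-repeat protein of the endocytic pathway, stood at 4.39, 4.52, 4.79 and 4.65 log2 CPM in HFD replicates 1 to 4 and at 3.74, 4.04, 3.98 and 3.85 in RC replicates 1 to 4. All 4 HFD libraries lay above all 4 RC libraries, and the gene rose by 0.69 ± 0.15 (SE; limma adjusted p = 0.0384). Gps2 (chromosome 11, 69913888 to 69916591), a subunit of the NCoR-SMRT corepressor complex, measured 4.71, 4.82, 5.05 and 4.95 under HFD and 4.51, 4.64, 4.47 and 4.24 under RC, a rise of 0.41 ± 0.09 (adjusted p = 0.0384). Its groups did not overlap either, though HFD replicate 1 and RC replicate 2 came close to each other. Fev (chromosome 1, 74881509 to 74885419), an ETS transcription factor of serotonin neurons that is also made in beta cells, measured 3.84, 3.42, 3.38 and 3.34 under HFD and 2.73, 2.99, 2.59 and 2.76 under RC. It rose by 0.72 ± 0.17 (adjusted p = 0.0384), and HFD replicate 1 lay well above the other HFD libraries. Hmg20b, a subunit of the LSD1-CoREST corepressor complex, rose by 0.51 ± 0.12 (adjusted p = 0.0384).

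Signalling and lipid enzymes followed. Pik3r2, the p85-beta regulatory subunit of phosphatidylinositol 3-kinase, measured 5.18, 4.82, 5.28 and 5.22 under HFD and 4.5, 4.7, 4.6 and 4.73 under RC, a rise of 0.49 ± 0.11 (adjusted p = 0.0384) with groups apart. Stk11, which encodes LKB1, the kinase that activates AMPK, rose by 0.46 ± 0.11 (adjusted p = 0.0384); it was chosen after its values were seen. Its groups overlapped, since HFD replicate 2 (6.33) lay just under RC replicate 2 (6.35). Agpat2, which makes phosphatidic acid on the way to triglyceride and phospholipid, measured 4.57, 4.48, 4.99 and 4.67 under HFD and 4.19, 4.38, 4.36 and 4.12 under RC, a rise of 0.42 ± 0.10 (adjusted p = 0.0394). Acadvl, the very-long-chain acyl-CoA dehydrogenase that opens mitochondrial fatty acid oxidation, measured 5.85, 6.16, 6.36 and 6.28 under HFD and 5.81, 5.89, 5.81 and 5.69 under RC. It rose by 0.37 ± 0.093 (adjusted p = 0.0485), and only HFD replicate 1 lay within the RC range.

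Gstp1, a glutathione S-transferase that conjugates electrophiles, measured 4.5, 4.37, 4.52 and 4.54 under HFD and 4, 4.15, 4.01 and 3.97 under RC, a rise of 0.45 ± 0.10 (adjusted p = 0.0384). The mouse genome holds near-identical copies of this gene, and how reads were shared among them is not given in the sources used here. Mitochondrial and lysosomal genes among the risers were Phb2, a prohibitin of the inner membrane (0.31 ± 0.073), Elac2, which trims the 3′ ends of tRNA precursors (0.35 ± 0.079), and Man2b1, the lysosomal alpha-mannosidase (0.35 ± 0.081). Urod, an enzyme of haem synthesis, rose by 0.31 ± 0.076. Anxa6, a calcium-dependent phospholipid-binding protein, rose by 0.27 ± 0.064, with RC libraries at 6.84, 6.85, 6.85 and 6.85 and HFD libraries at 7.08, 7.01, 7.23 and 7.17. Components of ubiquitin ligases were also called, the F-box proteins Fbxl6 (0.51 ± 0.13) and Fbxo44 (0.42 ± 0.10) and the CUL2 substrate receptor Zer1 (0.29 ± 0.068). Whamm, which promotes actin nucleation on membranes (0.39 ± 0.092), and Mus81, a DNA structure-specific endonuclease (0.48 ± 0.12), completed the named risers.

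The named genes that fell included receptors of the TGF-beta superfamily, RNA-binding proteins, chromatin regulators and transcription factors. Bmpr2 (chromosome 1), the type II receptor for bone morphogenetic proteins, measured 5.95, 5.61, 5.25 and 5.43 under HFD and 6.34, 6.14, 6.10 and 6.25 under RC, a change of -0.65 ± 0.14 (adjusted p = 0.0384). All HFD libraries lay under all RC libraries, and HFD replicate 3 was the lowest. Acvr2a, a type II receptor for activins, changed by -0.47 ± 0.12 (adjusted p = 0.0485) with groups apart. Rc3h1, which encodes Roquin-1, a protein that binds stem-loops in messenger RNAs and speeds their decay, measured 6.42, 6.24, 5.72 and 6.03 under HFD and 6.81, 6.61, 6.58 and 6.72 under RC, a change of -0.58 ± 0.13 (adjusted p = 0.0384). Cpeb4, which binds cytoplasmic polyadenylation elements, changed by -0.61 ± 0.16 (adjusted p = 0.0485), and its groups overlapped because HFD replicate 1 (6.63) lay above 2 of the RC libraries (6.59). Acvr2a and Cpeb4 were chosen after their values were seen.

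Sirt1 (chromosome 10), the NAD-dependent deacetylase that links nutrient state to chromatin and metabolism, measured 4.36, 4.07, 3.82 and 4.02 under HFD and 4.75, 4.72, 4.46 and 4.59 under RC. It fell in all 4 HFD libraries against all 4 RC libraries, by -0.56 ± 0.13 (adjusted p = 0.0394). Clock, the activating partner of BMAL1 in the circadian oscillator, measured 7.26, 7.05, 6.61 and 7.12 under HFD and 7.56, 7.29, 7.43 and 7.47 under RC, a change of -0.43 ± 0.11 (adjusted p = 0.0485). HFD replicate 1 and RC replicate 2 were the closest pair, and the groups stayed apart. Tead1, the DNA-binding partner of YAP in the Hippo pathway, changed by -0.49 ± 0.13 (adjusted p = 0.0485), the zinc-finger factors Zfx, Zfp654 and Zbtb41 by -0.48 ± 0.11, -0.52 ± 0.13 and -0.49 ± 0.13, and Mier3, a corepressor that recruits histone deacetylases, by -0.55 ± 0.13.

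Rnf180, a membrane-bound ubiquitin ligase, was at 2.02, 1.67, 1.81 and 2.05 under HFD and 2.48, 2.73, 2.38 and 2.53 under RC (-0.64 ± 0.14, adjusted p = 0.0384). Arl6ip6, a membrane protein named for its binding of the small GTPase ARL6, measured 3.88, 3.64, 3.66 and 3.55 under HFD and 4.29, 4.33, 4.02 and 4.05 under RC (-0.49 ± 0.10, adjusted p = 0.0384). In both genes HFD replicate 3 was not the lowest library, unlike in Bmpr2, Rc3h1, Sirt1 and Clock. Enzymes of lipid metabolism among the fallers were Sgpp1, a phosphatase of sphingosine 1-phosphate (-0.33 ± 0.08), Pgap1, which remodels GPI anchors (-0.55 ± 0.14), and Osbpl8, which exchanges lipids between the endoplasmic reticulum and the plasma membrane (-0.53 ± 0.13). The nuclear import receptor Kpna3 (-0.47 ± 0.10), the deubiquitinase family member Usp53 (-0.49 ± 0.12), the transporter-like protein Mfsd14a (-0.30 ± 0.069), the nuclear protein Rsbn1l (-0.55 ± 0.12) and the centrosomal protein Cep170 (-0.54 ± 0.13) also fell. The lowest called change was that of Nyap2, an adaptor of phosphatidylinositol 3-kinase in neurons, at 0.66, 0.29, -0.52 and 0.39 under HFD and 1.54, 1.07, 1.40 and 1.80 under RC (-1.25 ± 0.31, adjusted p = 0.0485). Nyap2 was chosen after its values were seen.

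**Figure D1:**
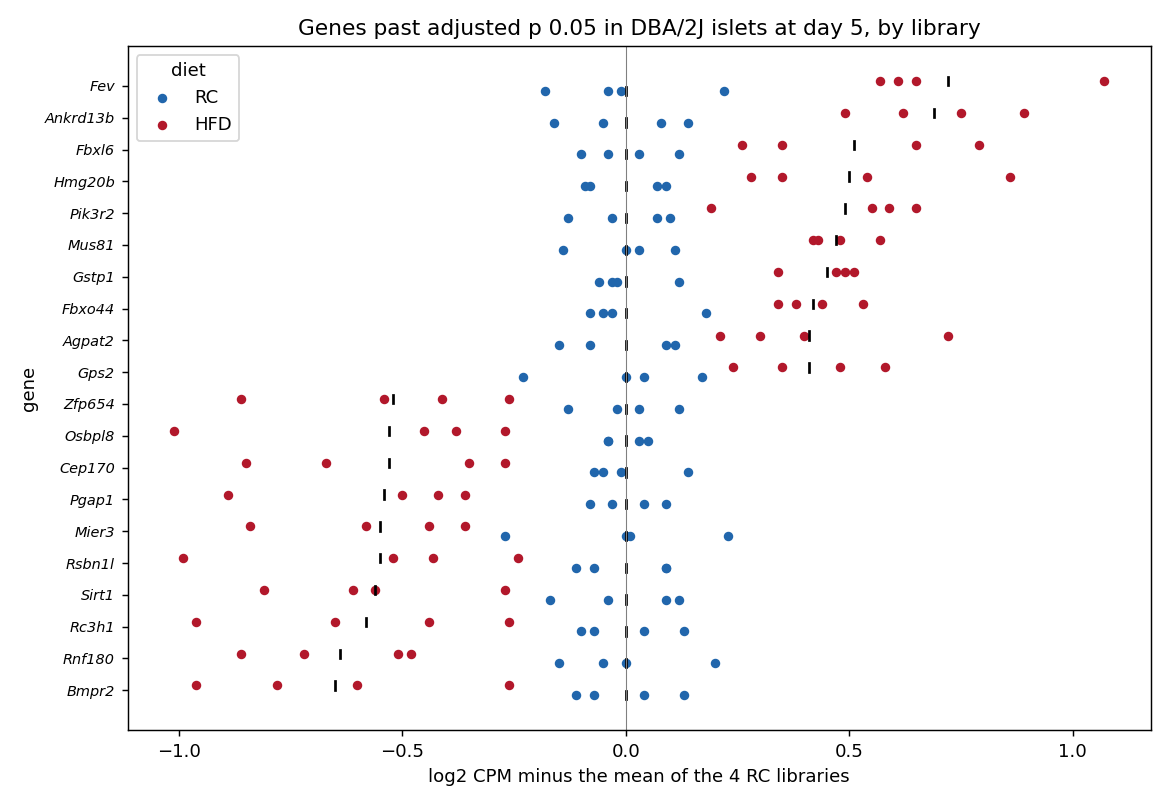
Levels of 20 named genes past adjusted p 0.05 (rows) in each DBA/2J day 5 library, as log2 CPM minus the mean of the 4 RC libraries (horizontal axis). Blue points are RC libraries, red points HFD libraries and black ticks the group means. In each of these genes the 4 red points lie on one side of the 4 blue points, which the choice of genes required.

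Across all genes the diet change followed GC content. Over 14589 genes with an annotated transcript, the change correlated with transcript GC content at r = 0.56, with log2 transcript length at -0.29 and with log2 gene span at -0.30; genes are not independent replicates and share their libraries. When genes were split into 5 groups of equal size by GC content, with bounds at 30.8%, 44.5%, 48.4%, 52.2%, 55.9% and 75.5%, the median change climbed from -0.21 in the lowest group through -0.09, 0.0032 and 0.11 to 0.23 in the highest. The share of genes with a change above 0 was 10.8%, 29.9%, 50.8%, 72.9% and 88% in the same order. The genes that rose lay in the upper groups alone, 10 in the fourth and 15 in the highest, and of the 54 fallers with a GC value 37 lay in the lowest group, 15 in the next and 2 in the middle one.

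In parallel, the genes that rose had a median transcript length of 2497 bases, a 3′ untranslated region of 417 bases and a gene span of 8538 bases. The genes that fell had medians of 4942, 2731 and 61538 bases, and all genes tested had 2931, 857 and 23165. Median GC content was 56.9% (53.2% to 63.2%) in the genes that rose, 42.4% (35.6% to 51.7%) in those that fell and 50.2% overall. The ranges of the called groups did not overlap in GC content.

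**Figure D2:**
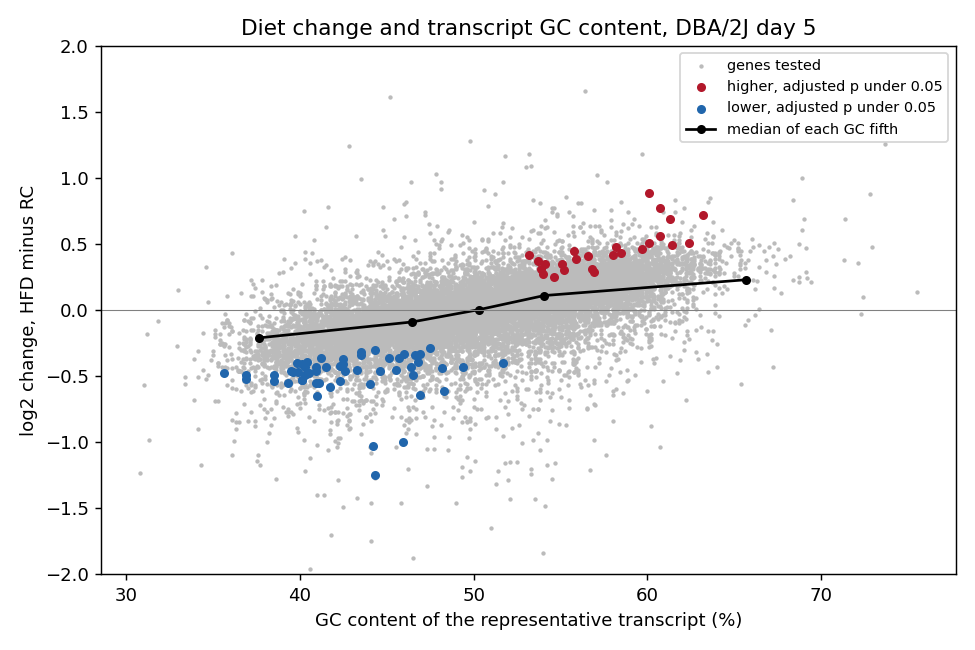
Each point is a gene, with the GC content of its representative transcript in percent on the horizontal axis and its log2 change, HFD minus RC, in DBA/2J islets at day 5 on the vertical axis, drawn from -2 to 2, with 5 genes outside. Red and blue points are genes past adjusted p 0.05, and the black line joins the medians of the 5 GC groups, which climb from -0.21 to 0.23.

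The GC gap of a library, the median deviation of the highest GC group of genes from the strain mean minus that of the lowest group, was 0.19, -0.09, 0.64 and 0.30 in HFD replicates 1 to 4 and -0.27, -0.085, -0.14 and -0.21 in RC replicates 1 to 4. HFD replicate 2 lay within the RC range and the other 3 HFD libraries above it. Gaps of the other 61 libraries of the study, each from the mean of its own strain, ran from -0.53 to 0.58, so HFD replicate 3 had the highest gap of the 69. The gap of 0.58 was that of a chow library, DBA/2J RC replicate 3 at day 13. The correlation of the change with GC content was 0.43 without HFD replicate 3, 0.63 without HFD replicate 2 and 0.31 without HFD replicates 3 and 4. The same correlation in other comparisons, none of which shares a library with this one, was -0.028 in C57BL/6J and -0.055 in BALB/cJ at day 5, and -0.30 and -0.27 in DBA/2J at days 13 and 33.

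**Figure D3:**
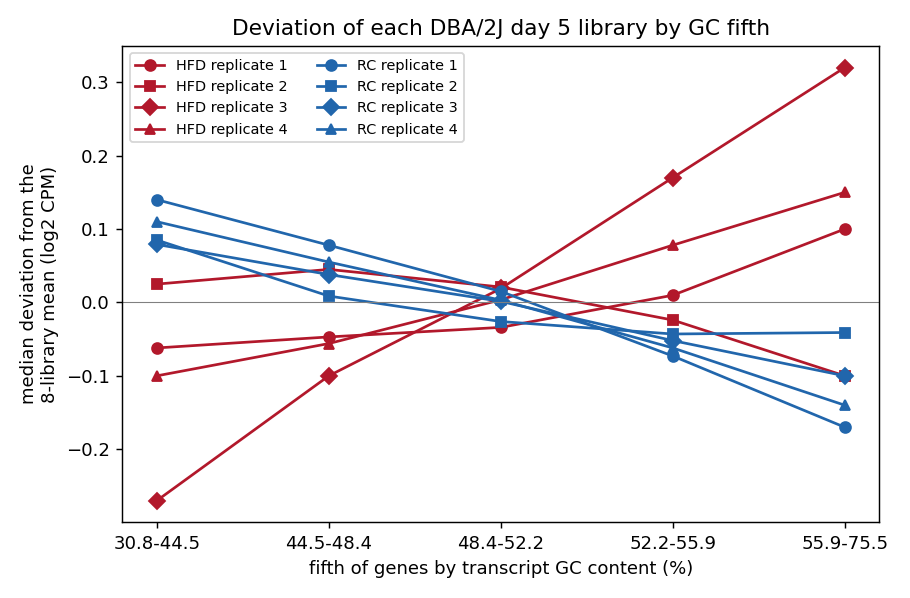
Median deviation of each DBA/2J day 5 library from the mean of the 8 libraries (vertical axis, log2 CPM) in each of the 5 groups of genes by transcript GC content (horizontal axis, percent). Red lines are HFD and blue lines RC libraries; HFD replicate 3 runs from -0.27 in the lowest group to 0.32 in the highest, and HFD replicate 2 runs with the RC libraries in the upper groups.

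A correction of each library for a smooth trend on GC content and length, added after the data were seen, left 0 of 14589 genes past the threshold (0%), with 1812 at an unadjusted p under 0.05 and a lowest adjusted p of 0.166. All 79 called genes with annotation kept their direction. Of these, all 25 risers and 44 of 54 fallers had an unadjusted p under 0.05 after correction, and the median change was 0.25 in place of 0.42 for the risers and -0.20 in place of -0.46 for the fallers. The change of Clock went from -0.43 to -0.079 and that of Zbtb41 from -0.49 to -0.052. By contrast Rnf180 went from -0.64 to -0.57, Cpeb4 from -0.61 to -0.57, Nyap2 from -1.25 to -1.05 and Man2b1 from 0.35 to 0.29. Ankrd13b stood at 0.45 after correction, Fev at 0.41, Bmpr2 at -0.29 and Sirt1 at -0.37. The part of sequence composition in the diet change was not tested beyond these values.

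Hormone and beta-cell genes gave no call. Insulin 2, the main insulin gene of the mouse, measured 16.95, 16.92, 17.38 and 17.33 under HFD and 16.74, 16.90, 16.80 and 16.72 under RC, a difference of 0.35 ± 0.21 (adjusted p = 0.274) for Ins2. Ins1 measured 15.31, 15.55, 15.91 and 15.93 against 15.35, 15.57, 15.46 and 15.35, a difference of 0.24 ± 0.18 (adjusted p = 0.392). The higher insulin values came from HFD replicates 3 and 4 in both genes, while HFD replicates 1 and 2 were at or near the RC level. Differences were -0.018 ± 0.11 for Iapp (amylin), 0.067 ± 0.18 for Gcg (glucagon), 0.22 ± 0.15 for Sst (somatostatin) and 0.24 ± 0.31 for Ppy (pancreatic polypeptide). Pyy, the gut hormone peptide YY that islet cells also make, measured 10.62, 9.67, 10.08 and 10.02 against 9.40, 9.86, 9.41 and 9.15 (0.64 ± 0.21, adjusted p = 0.068). In these bulk samples, fewer cells of a type and less RNA per cell cannot be told apart.

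Among 22 beta-cell transcription factors 9 had a change above 0, the median was -0.082 and none was called, beside a median of 0.0027 and 7370 of 14604 genes above 0 overall. Without HFD replicates 3 and 4 the direction of this list turned, to 13 of 22 above 0 and a median of 0.051. Mafa, a driver of insulin transcription in mature beta cells, measured 7.59, 6.55, 7.56 and 7.16 under HFD and 6.48, 6.70, 6.83 and 6.74 under RC (0.53 ± 0.26, adjusted p = 0.186). HFD replicate 2 lay within the RC range and the other 3 above it. Pdx1 differed by 0.16 ± 0.089 and Nkx6-1 by -0.079 ± 0.10. Nkx2-2, also needed for beta-cell identity, differed by 0.38 ± 0.14 (adjusted p = 0.0904). Neurod1 and St18 of the same list lay under 0, at -0.22 ± 0.083 (limma adjusted p = 0.0869) and -0.33 ± 0.12 (0.0878). After the GC and length correction these were -0.081 and -0.045. Of 20 insulin, amylin and granule protein genes 14 were above 0 (median 0.034; 10 of 20, median -0.00016, without HFD replicates 3 and 4). The convertase Pcsk1, which cuts proinsulin, measured 9.74, 9.66, 9.47 and 9.72 under HFD and 9.88, 9.82, 9.89 and 9.98 under RC (-0.24 ± 0.10, adjusted p = 0.127, and 0.046 after the GC and length correction). Pcsk1n, which encodes an inhibitor of that convertase, differed by 0.61 ± 0.25 (adjusted p = 0.114) and Ucn3, a marker of mature beta cells, by 0.18 ± 0.11.

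In the machinery of glucose sensing and release no gene of the lists was called. Slc2a2, the glucose transporter GLUT2, measured 10.35, 10.03, 9.63 and 9.74 under HFD and 10.31, 10.18, 10.33 and 10.26 under RC (-0.33 ± 0.14, adjusted p = 0.131). HFD replicates 3 and 4 were the lowest, HFD replicate 2 also lay under every RC library, and HFD replicate 1 lay above them. After the GC and length correction the difference was -0.053. Abcc8, the sulfonylurea receptor subunit of the ATP-sensitive potassium channel, measured 10.22, 9.93, 10.18 and 10.08 against 9.78, 9.80, 9.80 and 9.79, and its groups did not overlap (0.31 ± 0.10, adjusted p = 0.0639). The glucose sensing and excitability list had 13 of 22 members above 0 (median 0.085), and the exocytosis list 15 of 24 (median 0.12, or 0.029 after correction and 0.059 without HFD replicates 3 and 4). Napa, the alpha-SNAP that recycles SNARE complexes, differed by 0.26 ± 0.068 (adjusted p = 0.0549), Stx1a, syntaxin 1A, by 0.41 ± 0.13 (0.0647) and the cation channel gene Trpm4 by 0.38 ± 0.11 (0.0595). In the other direction, Scn3a and Kcnma1 of the glucose sensing and excitability list differed by -0.53 ± 0.18 (limma adjusted p = 0.0712) and -0.23 ± 0.10 (0.127). Both had overlapping groups, and after correction they stood at -0.21 and -0.20. The incretin receptor genes differed by 0.011 ± 0.12 for Glp1r and 0.29 ± 0.19 for Gipr.

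Genes of fatty acid oxidation were mostly on the higher side, with few calls. Members above 0 made up 82.2% of that list, 57.1% of the fatty acid synthesis list and 58.6% of the cholesterol list. Over all genes tested the share was 50.5%. In the list of fatty acid oxidation and PPAR targets 37 of 45 members had a change above 0, with a median of 0.20, which was 0.14 after correction and 0.087 (32 of 45) without HFD replicates 3 and 4. Acadvl was the 1 call, beside 0.171% of all genes called higher. Acot13, an acyl-CoA thioesterase of mitochondria, measured 4.95, 5.39, 5.25 and 5.10 under HFD and 4.89, 4.82, 4.91 and 4.75 under RC, with groups apart (0.33 ± 0.10, adjusted p = 0.0631, 0.29 after correction). Slc27a1, a fatty acid transport protein, had groups apart as well (0.48 ± 0.15, adjusted p = 0.0631). Cpt1a, the entry step of long-chain fatty acids into mitochondria, measured 5.39, 6.08, 6.06 and 6.25 against 5.87, 5.82, 5.85 and 5.69, so that HFD replicate 1 was the lowest and the other 3 HFD libraries the highest of the 8 (0.14 ± 0.22, adjusted p = 0.721). Pdk4, which holds back pyruvate oxidation, measured 6.62, 5.68, 5.19 and 5.96 against 5.35, 5.29, 5.21 and 5.34 (0.56 ± 0.25, adjusted p = 0.144). Those PPAR targets thus differed in which HFD library was highest, HFD replicate 4 for Cpt1a and HFD replicate 1 for Pdk4.

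In the fatty acid synthesis list 16 of 28 members were above 0 (median 0.037). Agpat2 was the 1 call there, beside 0.171% of all genes called higher. In the cholesterol list 17 of 29 were above 0 (median 0.064, or 0.022 without HFD replicates 3 and 4), and none was called. Scd1, the stearoyl-CoA desaturase, measured 3.53, 3.49, 3.46 and 3.15 under HFD and 3.94, 4.03, 3.77 and 4.17 under RC, with groups apart (-0.57 ± 0.31, adjusted p = 0.227). Mlxipl, which encodes the glucose-responsive factor ChREBP, measured 8.41, 7.98, 8.30 and 8.15 against 7.66, 7.83, 7.76 and 7.65, also apart (0.48 ± 0.18, adjusted p = 0.0869).

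Nuclear genes of energy metabolism and translation lay mostly above 0. All 77 cytosolic ribosomal protein genes had a change above 0, with a median of 0.16 (0.074 after correction, 64 of 77 above 0; 0.11 without HFD replicates 3 and 4, 75 of 77), and none was called. Many of these genes have processed pseudogenes of near-identical sequence, and how reads were shared with them is not given in the sources used here. Rpl13 measured 7.64, 7.31, 7.66 and 7.49 against 6.98, 7.31, 7.07 and 7.04 (0.42 ± 0.12, adjusted p = 0.0551). Of 66 nuclear genes of oxidative phosphorylation 62 were above 0, with a median of 0.16 (0.10 after correction; 0.065, 59 of 66, without HFD replicates 3 and 4). Cox8a, a subunit of cytochrome c oxidase, had groups apart (0.42 ± 0.12, adjusted p = 0.0569) and Ndufs7, of complex I, did not (0.48 ± 0.15, adjusted p = 0.0639). The 7 mitochondrially encoded genes, which are AT-rich (median 37.1% GC), were all under 0 with a median of -0.23, which was 0.052 after correction and -0.043, with 1 of 7 above 0, without HFD replicates 3 and 4. Among them mt-Co1, a core subunit of complex IV, measured 13.12, 13.08, 12.62 and 12.93 against 13.14, 13.29, 13.19 and 13.14 (-0.25 ± 0.12, adjusted p = 0.179). The medians of nuclear and mitochondrially encoded genes thus lay on opposite sides of 0 as deposited and on the same side after the correction. Glycolysis genes were above 0 in 17 of 20 cases (median 0.18, 0.10 after correction; 0.095, 15 of 20, without HFD replicates 3 and 4), with Gpi1 at 0.25 ± 0.071 (adjusted p = 0.0551), Aldoa at 0.33 ± 0.093 (0.0551) and Gapdh at 0.32 ± 0.11 (0.0742).

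Genes of the integrated stress response, the programme of aminoacyl-tRNA synthetases and amino acid transporters driven by ATF4, were above 0 in 25 of 32 cases, with a median of 0.21 (0.13 after correction; 0.13, 22 of 32, without HFD replicates 3 and 4), and none was called. Aars, the alanyl-tRNA synthetase, measured 7.43, 7.48, 7.70 and 7.65 against 7.16, 7.32, 7.11 and 7.04 (0.41 ± 0.13, adjusted p = 0.0631). Gars, for glycine, measured 7.90, 7.97, 7.97 and 7.97 against 7.69, 7.72, 7.75 and 7.71 (0.23 ± 0.077, adjusted p = 0.0676, and 0.23 after correction). In both genes every HFD library lay above every RC library. The transporter gene Slc7a5 also had groups apart (0.36 ± 0.13, adjusted p = 0.079). Ddit3, which encodes CHOP, differed by 0.36 ± 0.20 (adjusted p = 0.23). The chaperones and degradation factors of the endoplasmic reticulum had 19 of 34 members above 0 and a median of 0.0091 (17 of 34 and -0.0011 without HFD replicates 3 and 4). Hspa5, the chaperone BiP, measured 10.82, 11.16, 11.01 and 11.04 against 10.91, 10.81, 10.80 and 11.05, with overlapping groups (0.11 ± 0.15, adjusted p = 0.658), and Syvn1, a ligase of the degradation pathway, differed by 0.43 ± 0.16 (adjusted p = 0.0922). Antioxidant genes were above 0 in 19 of 27 cases (median 0.13; 0.062, 16 of 27, without HFD replicates 3 and 4). Txnip, the glucose-induced thioredoxin inhibitor, differed by -0.089 ± 0.17.

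**Figure D4:**
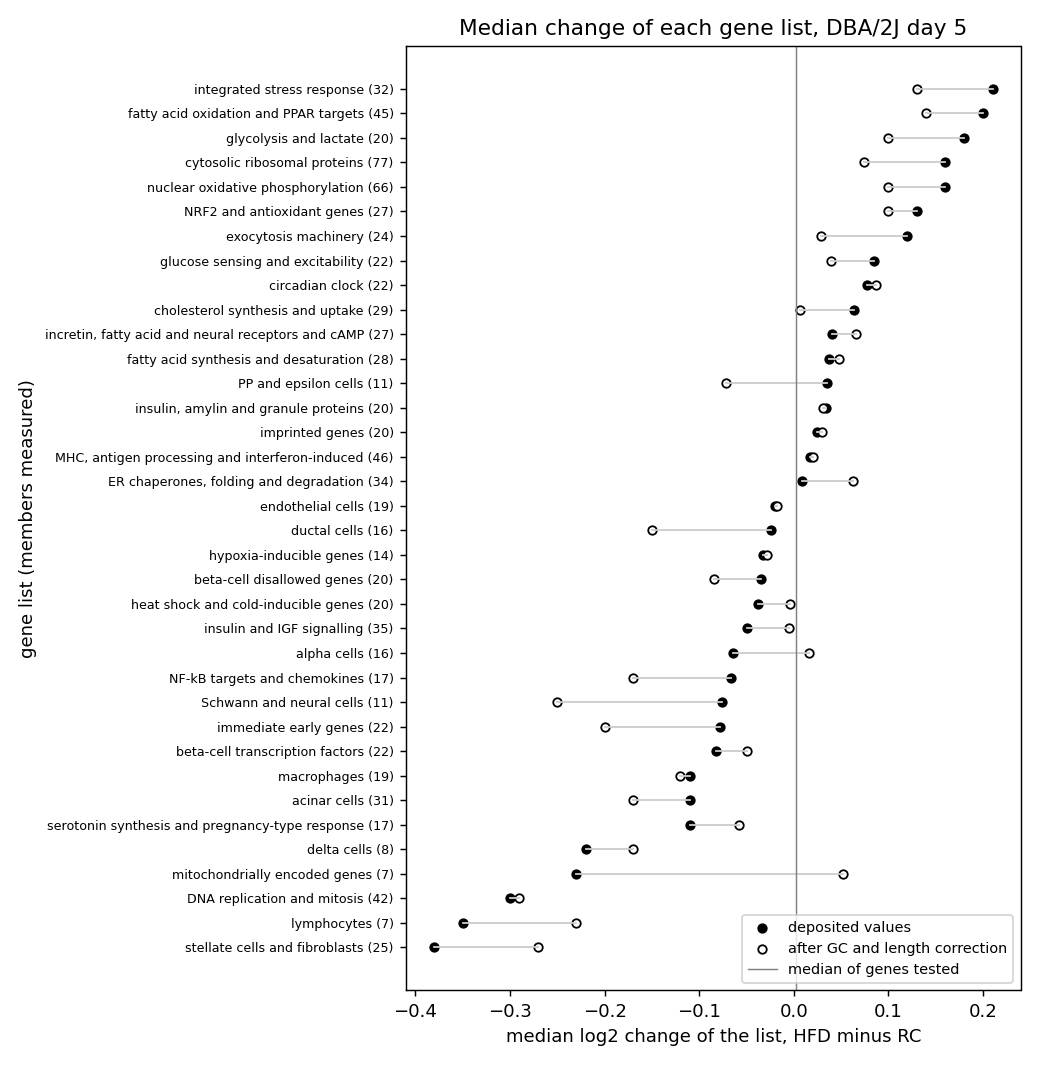
Median log2 change, HFD minus RC, of each gene list with at least 7 measured members (rows, members measured in parentheses) in DBA/2J islets at day 5. Filled circles are the deposited values, open circles the values after correction for GC content and length, and the grey line the median of all genes tested; integrated stress response genes lie at 0.21 and 0.13, stellate cell and fibroblast genes at -0.38 and -0.27, and mitochondrially encoded genes move from -0.23 to 0.052.

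In the circadian clock list Clock was the 1 call (0.377% of all genes were called lower) and 16 of 22 members were above 0 (median 0.077). Arntl, which encodes BMAL1, measured 4.83, 4.62, 4.52 and 4.47 under HFD and 5.08, 4.93, 4.97 and 5.02 under RC (-0.39 ± 0.37, adjusted p = 0.518). Dbp, an output factor that BMAL1 and CLOCK activate, measured 5.95, 5.49, 5.68 and 5.43 against 4.65, 4.49, 5.19 and 4.90 (0.83 ± 0.38, adjusted p = 0.156). Nr1d1, the repressor REV-ERB-alpha, measured 6.36, 5.65, 5.58 and 5.66 against 5.15, 5.15, 5.52 and 5.29 (0.54 ± 0.39, adjusted p = 0.385). In all 3 genes the diet groups did not overlap at day 5. The model, which takes the spread from all 69 libraries, gave large errors, and none of the 3 was called. Of the 22 list members, 3 had groups apart on the higher side and 3 on the lower side, beside 5.83% and 5.86% of all genes. Differences were 0.27 ± 0.21 for Per1, 0.23 ± 0.20 for Per2, 0.31 ± 0.33 for Per3, -0.22 ± 0.57 for Npas2 and 0.33 ± 0.24 for Tef. Rbm3, the cold-inducible RNA-binding protein gene, had overlapping groups (0.043 ± 0.25). The time of day at which islets were taken is not given in the sources used here, and its part was not tested.

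Replication genes lay mostly under 0. Of 42 genes of DNA replication and mitosis 5 were above 0, the median was -0.30 (-0.29 after correction; -0.51, 6 of 42 above 0, without HFD replicates 3 and 4) and none was called. The mean level of the list was 2.30, 2.78, 2.87 and 2.88 log2 CPM in HFD replicates 1 to 4 and 3.12, 2.93, 3.02 and 3.08 in RC replicates 1 to 4. Mcm6, a subunit of the replicative helicase, measured 1.86, 2.68, 2.67 and 2.42 against 3.32, 2.89, 2.92 and 3.17 (-0.67 ± 0.21, adjusted p = 0.0639, -0.64 after correction). Every HFD library lay under every RC library in this gene and in the list mean, with HFD replicate 1 the lowest. Mki67, a marker of dividing cells, measured 2.71, 3.80, 3.64 and 3.72 against 4.25, 3.54, 4.13 and 4.33, with overlapping groups (-0.60 ± 0.43, adjusted p = 0.374).

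Of 17 genes of serotonin synthesis and the response known from pregnancy 5 were above 0, with a median of -0.11 (-0.058 after correction; -0.23, 3 of 17, without HFD replicates 3 and 4), and none was called. The members described here belong to prolactin and growth hormone signalling and do not stand for the whole list. Cish, a feedback inhibitor induced by STAT5 downstream of prolactin and growth hormone receptors, measured 5.17, 3.88, 5.29 and 5.33 under HFD and 3.69, 3.53, 2.76 and 3.05 under RC. The groups did not overlap, HFD replicate 2 lay near the RC libraries, and the difference was 1.66 ± 0.47 (adjusted p = 0.0551, 1.5 after correction). Bcl6, a repressor that STAT5 is known to turn down, measured 1.97, 1.28, 1.27 and 1.10 against 3.08, 3.13, 2.84 and 1.86 (-1.32 ± 0.42, adjusted p = 0.0644, -1.32 after correction), and only RC replicate 4 lay within the HFD range. Socs2, another STAT5 target, measured 4.47, 4.76, 4.88 and 4.90 against 4.47, 4.54, 3.93 and 4.36 (0.43 ± 0.20, adjusted p = 0.159). Prlr, the prolactin receptor gene, measured 8.43, 8.45, 7.89 and 8.24 against 9.12, 8.74, 8.73 and 8.87 (-0.61 ± 0.19, adjusted p = 0.0631), and its difference was -0.22 after correction. Cish and Bcl6 were thus as far apart between diets after the correction as before or nearly so, and Prlr was not. In the insulin and IGF list 15 of 35 members were above 0 (median -0.049). Pik3r2 was the 1 call, beside 0.171% of all genes called higher. Hif1a, the oxygen-regulated factor, differed by -0.36 ± 0.11 (adjusted p = 0.062).

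Markers of other cell types gave no call in any of the lists. Of 25 stellate cell and fibroblast genes 4 were above 0, with a median of -0.38 (-0.27 after correction; -0.55, 2 of 25 above 0, without HFD replicates 3 and 4). Summed over the list they held 419 to 635 CPM under HFD and 578 to 704 CPM under RC, no member was at 0 reads in any of the 8 libraries, and HFD replicate 1 was the lowest. Postn, a matrix protein of activated fibroblasts, measured 1.90, 3.00, 2.89 and 2.87 against 3.10, 3.24, 3.45 and 3.34 (-0.62 ± 0.31, adjusted p = 0.185). Fn1, fibronectin, measured 1.13, 1.89, 2.69 and 0.97 against 3.08, 2.34, 3.06 and 3.92 (-1.43 ± 0.66, adjusted p = 0.153), and Dcn, decorin, 2.47, 3.62, 3.28 and 3.36 against 3.38, 4.01, 4.44 and 4.51 (-0.90 ± 0.44, adjusted p = 0.182). Fn1 and Dcn had overlapping groups and Postn did not. Rgs5, a pericyte gene of this list, was apart as well (-0.26 ± 0.13, adjusted p = 0.185). Of the 25 members, 2 had groups apart on the lower side and 0 on the higher side, beside 5.86% and 5.83% of all genes. Cxcl12, a chemokine of stromal cells that was named through another list, was also apart (-0.65 ± 0.26, adjusted p = 0.108).

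Macrophage genes were above 0 in 6 of 19 cases (median -0.11; 161 to 193 CPM under HFD, 155 to 231 under RC, no member at 0 reads), and endothelial genes in 7 of 19 (median -0.02, or -0.046 without HFD replicates 3 and 4; 941 to 1010 against 917 to 1080 CPM). Complement C3 measured 3.06, 4.17, 3.85 and 3.97 under HFD and 4.02, 3.92, 5.74 and 6.35 under RC (-1.24 ± 0.47, adjusted p = 0.0954). RC replicates 3 and 4 were high and the other 6 libraries lay at 3.06 to 4.17 in C3, and the same libraries were highest for the macrophage lysozyme Lyz2 (4.73 and 5.34, against 3.18 to 4.10 elsewhere) and for Ptprc, the leukocyte antigen CD45 (3.22 and 3.71, against 1.93 to 2.44). The 7 measured lymphocyte genes summed to 13.9 to 149 CPM under HFD and 10.2 to 369 under RC, with RC replicate 4 the highest and 1 member, Ms4a1, at 0 reads in at least 1 library. The part of these cells in the diet differences was not tested. With mean levels of the stellate, endothelial and macrophage lists as covariates 0 genes passed, and 3640 had an unadjusted p under 0.05. The lowest adjusted p of that limma fit was 0.0597. Without the covariates it was 0.0384, and 3895 genes had an unadjusted p under 0.05.

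Acinar genes, which come from exocrine tissue carried along with islets, were above 0 in 8 of 31 cases (median -0.11), and in 23 of 31 without HFD replicates 3 and 4 (median 0.091), so the direction rested on the libraries used. Their sum was 11200, 3880, 4720 and 5040 CPM in HFD replicates 1 to 4 and 6110, 12800, 4600 and 3690 CPM in RC replicates 1 to 4. HFD replicate 1 and RC replicate 2 carried the most, as in Cpb1, a pancreatic carboxypeptidase, which stood at 9.41 and 9.79 there and between 7.99 and 8.82 elsewhere. With the acinar level as a covariate 1.86% of genes passed (103 higher and 169 lower), including all 80. The 4 measured Reg genes, which encode secreted lectins of injured or regenerating pancreas, were all under 0 (median -0.97), with Reg1 at 6.32, 5.84, 6.10 and 5.95 against 6.99, 7.63, 6.46 and 6.10 (-0.74 ± 0.82, adjusted p = 0.592). Alpha-cell genes were above 0 in 7 of 16 cases (median -0.064) and delta-cell genes in 3 of 8 (median -0.22). Without HFD replicates 3 and 4 the alpha-cell list turned to 11 of 16 above 0 (median 0.083) and the delta-cell list had 4 of 8 (median -0.0058). The ductal list had 8 of 16 members above 0 and a median of -0.024, which was -0.15 after correction (6 of 16 above 0) and -0.12 without HFD replicates 3 and 4. Pkhd1, which encodes fibrocystin, measured 3.98, 3.55, 3.42 and 3.39 against 4.20, 3.71, 4.17 and 4.10, with overlapping groups (-0.46 ± 0.16, adjusted p = 0.0784). Krt18, a keratin of simple epithelia, was apart at 6.79, 6.74, 7.11 and 7.04 against 6.34, 6.41, 6.54 and 6.55 (0.46 ± 0.12, adjusted p = 0.0551, 0.28 after correction).

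Compared with C57BL/6J at the same day, 16 genes (0.11% of those tested) differed in their response to the diet (limma interaction contrast, adjusted p under 0.05), 7 with a higher and 9 with a lower change in DBA/2J. Trib1, a pseudokinase that steers protein degradation and lipid metabolism, measured 5.54, 5.31, 5.26 and 5.33 in DBA/2J HFD libraries and 5.21, 5.27, 5.51 and 5.30 in DBA/2J RC libraries. Its diet change was 0.041 in DBA/2J and 1.13 in C57BL/6J, a difference of -1.09 ± 0.19 (adjusted p = 0.00662; -1.15 after correction, adjusted p = 0.00498). Rasd1, a Ras-like GTPase induced by glucocorticoids, changed by 0.21 in DBA/2J and -1.69 in C57BL/6J (difference 1.90 ± 0.36, adjusted p = 0.0171). Per1, the clock gene that glucocorticoids also induce, changed by 0.27 and 1.67 (difference -1.40 ± 0.30, adjusted p = 0.0301; -1.56 after correction, adjusted p = 0.00798). These genes had small differences between diets in DBA/2J and wide ones in C57BL/6J. Library titles carry numbers that the labels do not explain. At this day the HFD and RC libraries of C57BL/6J share no such number, whereas those of DBA/2J share some. In C57BL/6J, diet therefore cannot be told apart from whatever the numbers mark. Their part in the genes of this contrast was not tested.

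For other genes the strains lay on opposite sides of 0. The tRNA synthetase genes Aars and Yars changed by 0.41 and 0.36 in DBA/2J and by -0.39 and -0.34 in C57BL/6J, with differences of 0.79 ± 0.18 (adjusted p = 0.0375) and 0.70 ± 0.16 (adjusted p = 0.0348); after correction their adjusted p-values were 0.131 and 0.0862. Gadd45g, a stress-induced growth arrest gene, changed by 0.40 against -0.72 (difference 1.12 ± 0.24, adjusted p = 0.0278), and Anxa6 by 0.27 against -0.16 (difference 0.43 ± 0.09, adjusted p = 0.0244). Wee1, the kinase that restrains entry into mitosis, changed by -0.37 against 0.59 (difference -0.97 ± 0.20, adjusted p = 0.0244), and Errfi1, a feedback inhibitor of EGF receptor signalling, by -0.16 against 1.09 (difference -1.25 ± 0.27, adjusted p = 0.0301); these genes were chosen after their values were seen. Among regulators of transcription, Btaf1 differed by -0.85 ± 0.18, Ccnt1, the cyclin of the elongation factor P-TEFb, by -0.64 ± 0.13, and Abitram by -0.49 ± 0.10 (adjusted p = 0.0244 each). After the GC and length correction 20 genes passed this contrast, 10 of them among the 16. Without DBA/2J HFD replicates 3 and 4, 0 passed and 1192 had an unadjusted p under 0.05; singly, leaving out HFD replicate 1, 2, 3 or 4 gave 145, 28, 2 or 4 calls and leaving out RC replicate 1 gave 1.

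**Figure D5:**
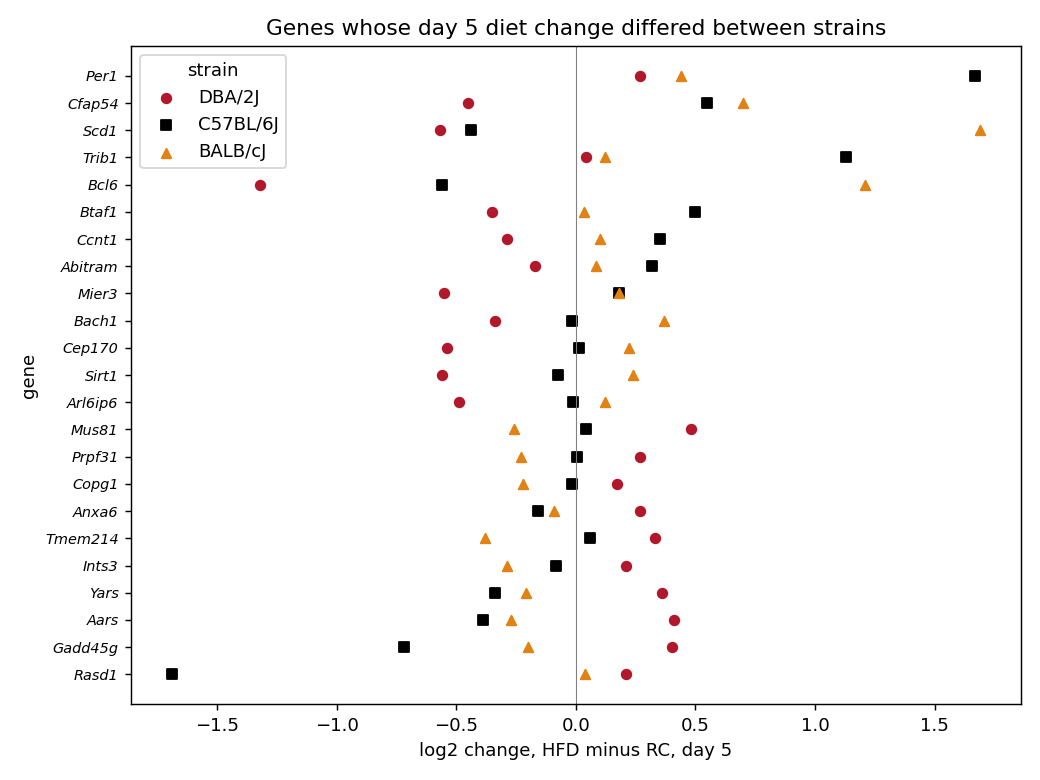
Day 5 log2 change, HFD minus RC (horizontal axis), in DBA/2J (red circles), C57BL/6J (black squares) and BALB/cJ (orange triangles) islets for named genes (rows) whose change differed between DBA/2J and either of the other strains at adjusted p under 0.05. Per1 changed by 0.27, 1.67 and 0.44 in that order of strains, and Scd1 by -0.57, -0.44 and 1.69.

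Against BALB/cJ, 60 genes (0.411%) differed in their response, 30 in each direction; both strain comparisons use the same 8 DBA/2J libraries. Scd1 changed by -0.57 in DBA/2J and 1.69 in BALB/cJ, a difference of -2.26 ± 0.44 (adjusted p = 0.033; -2.08 after correction, adjusted p = 0.0224). Bcl6 changed by -1.32 and 1.21 (difference -2.53 ± 0.60, adjusted p = 0.0492; -2.51 after correction, adjusted p = 0.0432). In both genes DBA/2J and BALB/cJ lay on opposite sides of 0 and C57BL/6J on the side of DBA/2J, at -0.44 and -0.56. Copg1, a coat subunit of COPI vesicles, measured 8.76, 8.76, 8.88 and 8.86 in DBA/2J HFD libraries and 8.60, 8.64, 8.64 and 8.70 in DBA/2J RC libraries, a change of 0.17 against -0.22 in BALB/cJ (difference 0.39 ± 0.076, adjusted p = 0.033). Tmem214, a protein of the endoplasmic reticulum, differed by 0.71 ± 0.16 (adjusted p = 0.0492). Sec31a, of the COPII coat, differed by 0.33 ± 0.077, Srprb, of the signal recognition particle receptor, by 0.83 ± 0.21, and Alg12, a mannosyltransferase of N-glycan assembly, by 0.81 ± 0.18 (adjusted p = 0.0492 each), and these were chosen after their values were seen.

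The remaining named differences from BALB/cJ concerned nuclear genes. Prpf31, a splicing factor of the tri-snRNP, differed by 0.50 ± 0.10 and Ints3, of the Integrator complex, by 0.50 ± 0.10 (adjusted p = 0.033 each). Sirt1 changed by -0.56 in DBA/2J and 0.24 in BALB/cJ (difference -0.80 ± 0.19, adjusted p = 0.0492; -0.57 after correction, adjusted p = 0.0524). Bach1, a haem-regulated repressor, differed by -0.71 ± 0.16, the axonemal protein gene Cfap54 by -1.16 ± 0.26, and Tcf7l2, the Wnt pathway factor, chosen after its values were seen, by -0.75 ± 0.17 (adjusted p = 0.0492 each). Of the day 5 calls 8 passed here as well, among them Sirt1 and, with the following differences, Arl6ip6, Mier3, Cep170, Mus81 and Anxa6, at -0.61, -0.73, -0.75, 0.73 and 0.37. This contrast contains the DBA/2J day 5 change that made those calls, so the overlap was not a separate test. The correction left 57 genes past the threshold, 23 of them among the 60. Leaving out DBA/2J HFD replicates 3 and 4 gave 0, with 1194 genes at an unadjusted p under 0.05, and singly, leaving out HFD replicate 1 or 2 gave 961 or 736, RC replicate 2 or 3 gave 5 each and any other of the 8 gave 0.

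Few genes were called for a response that differed between day 5 and later days in DBA/2J, and the groups of different days share no library. Between day 33 and day 5 there were 2 calls (0.0137%), with 3494 genes at an unadjusted p under 0.05. Ino80c, a subunit of the INO80 chromatin remodeller, changed by -0.21 at day 5 and 0.45 at day 33 (difference 0.66 ± 0.13, adjusted p = 0.0488; 0.72 after correction, adjusted p = 0.0444). Arl6ip6 changed by -0.49 and 0.21 (difference 0.70 ± 0.14, adjusted p = 0.0488; 0.35 after correction, adjusted p = 0.386). Neither passed without DBA/2J HFD replicates 3 and 4, or without HFD replicate 3, HFD replicate 4, RC replicate 1, RC replicate 3 or RC replicate 4, and 794 or 1060 genes passed without HFD replicate 1 or 2.

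Between day 13 and day 5 there were 11 calls (0.0753%), with 3227 genes at an unadjusted p under 0.05 and 0 calls after correction. Each of the named calls had opposite signs at the 2 days. Ankrd13b changed by 0.69 at day 5 and -0.29 at day 13 (difference -0.98 ± 0.22, adjusted p = 0.0493), Hmg20b by 0.51 and -0.28 (difference -0.78 ± 0.17, adjusted p = 0.0493) and Zer1 by 0.29 and -0.21 (difference -0.50 ± 0.10, adjusted p = 0.0446). In the other direction, Kpna3 changed by -0.47 and 0.24 (difference 0.71 ± 0.15), Sgpp1 by -0.33 and 0.22 (0.55 ± 0.12), Mfsd14a by -0.30 and 0.18 (0.48 ± 0.10) and Rab10, a GTPase of vesicle traffic, by -0.26 and 0.28 (0.54 ± 0.11), with an adjusted p of 0.0446 each. Of the day 5 libraries, leaving out HFD replicate 1 or 2 gave 853 or 808 calls, HFD replicate 3 gave 1, and HFD replicate 4 or RC replicate 1, 2 or 4 gave 0. No day 13 library was left out in turn.

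Across all 80 day 5 calls, the direction seen in DBA/2J at day 5 was shared least with DBA/2J at day 13. Of the 25 risers, 19 had a change above 0 in C57BL/6J at day 5, 12 in BALB/cJ at day 5, 1 in DBA/2J at day 13 and 5 in DBA/2J at day 33. Of the 55 fallers, 31, 12, 2 and 15 had a change under 0 in the same order. Their median changes in the other comparisons were small, between -0.088 and 0.058 for the risers and between -0.017 and 0.14 for the fallers. Over all genes tested, 7743, 6242, 5371 and 5640 of 14604 shared the sign of the DBA/2J day 5 change in that order. Among the DBA/2J day 13 libraries, RC replicate 3 had a GC gap of 0.58 and the others ran from -0.15 to 0.20. No day 13 library was left out in turn, so the part of that library was not tested. The shares themselves were not tested either.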

How the data were processed

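Messenger RNA of DBA/2J islets was sequenced in 4 HFD and 4 RC libraries at day 5, and these were analysed within the 69 libraries and 18 groups (strain, diet and day) that have values. Another 3 of the 72 labelled samples, none of them DBA/2J at day 5, were not analysed here. Per the labels' protocols, RNA had quality numbers of 8.2 to 9.3, and 250 ng went into stranded, poly(A)-selected libraries (TruSeq) read singly over 125 bp. In the submitters' processing notes the build GRCm38 and the tools edgeR, HTSeq 0.9.1 and STAR 2.5.3a are named, with no further settings.

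The authors deposited a table of log2 CPM normalized between libraries for 14604 genes. Every DBA/2J day 5 library had a floor of -3.54, and whole reads came out for 100% of values within 0.05 reads. Per library, 12984004 to 30520111 reads lay in these genes. The series text gives days 5, 13 and 13, and the sample labels, which were used, 5, 13 and 33. Of the gene identifiers 14589 matched GENCODE mouse release 21, which gave coordinates, GC content and lengths (15 had none).

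A linear model with a mean for each group, limma 3.58.1 under R 4.3.3 with trended variance shrinkage, took in all 69 libraries, with 51 residual degrees of freedom. Contrasts were two-sided, with Benjamini-Hochberg adjustment over all genes and a threshold of 0.05. A filter of log2 CPM above 0 in at least 4 libraries removed 0 genes. Values after ± are standard errors. The GC and length correction subtracts from each library a smooth trend (splines with 5 degrees of freedom) of its deviations from the strain mean. The fits were tested on simulated data.

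The comparison and the gene lists were chosen with earlier results of these data known. Named genes are protein-coding, outside the lowest 25% by mean level. They are the 15 highest and 15 lowest changes past the threshold with groups apart, the 4 lowest p per direction in each interaction contrast, from each list at most 4 genes of lowest p, and a set of islet genes; others are said to have been chosen after their values were seen. A few genes within these rules are not reported here. Lists were described by counts and medians, with no test. Alternatives covered the libraries in the fit, filter, pseudocount, centring, weights, shrinkage, cell type covariates, left-out libraries and a replicate block. Those on GC content, voom on recovered reads and HFD replicates 3 and 4 were added after the data were seen.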

Additional observations from a re-analysis of the deposited data

Results flagged for a closer look

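For the 41 called genes and 95 of the uncalled genes named here, and for each gene list, both diet groups were checked for 1 library lying apart. Chance alone puts a library past Dixon's criterion at the 95% level in about 1 in 20 groups. With both diet groups checked, about as many genes and lists as follow would be flagged by chance alone. In the following genes 1 library lay farther from the other 3 of its group than that criterion allows. Among islet genes these were Fev in HFD replicate 1 (3.84 log2 CPM, the others 3.34 to 3.42), Ppy in RC replicate 2 (12.2, the others 11.44 to 11.53), Nkx2-2 in RC replicate 2 (7.10, the others 6.71 to 6.76) and Trpm4 in RC replicate 1 (3.58, the others 3.89 to 3.93). In energy and stress genes they were mt-Nd2, a mitochondrially encoded subunit of complex I, in RC replicate 2 (11.62, the others 10.89 to 10.97) and Gars in HFD replicate 1 (7.90, the others 7.97). Clock genes were Per2 in RC replicate 1 (4.67, the others 4.77 to 4.78) and Nr1d1 in HFD replicate 1 (6.36, the others 5.58 to 5.66). In growth and signalling, Mki67 stood low in HFD replicate 1 (2.71, the others 3.64 to 3.80) and Cish low in HFD replicate 2 (3.88, the others 5.17 to 5.33). Postn was low in HFD replicate 1 (1.90, the others 2.87 to 3.00), the acinar gene Cpb1 high in HFD replicate 1 (9.41, the others 7.99 to 8.20) and Sec31a high in RC replicate 3 (8.66, the others 8.59 to 8.60). HFD replicate 1 also stood apart in the mean level of 3 lists, with 7.03 for glucose sensing and excitability (the others 6.77 to 6.79), 5.62 for hypoxia-inducible genes (5.46 to 5.48) and 5.73 for imprinted genes (5.42 to 5.43).

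The diet change in DBA/2J at day 5 minus that in C57BL/6J differed from 0 by limma's interaction test for 12 of the genes named, at 0.43 for Anxa6, 0.79 for Aars, 0.70 for Yars, -1.40 for Per1, -1.09 for Trib1, 1.90 for Rasd1, -0.97 for Wee1, 1.12 for Gadd45g, -1.25 for Errfi1, -0.85 for Btaf1, -0.49 for Abitram and -0.64 for Ccnt1. Against BALB/cJ the difference was higher in DBA/2J for Anxa6 (0.37), Mus81 (0.73), Copg1 (0.39), Prpf31 (0.50), Ints3 (0.50), Tmem214 (0.71), Alg12 (0.81), Sec31a (0.33) and Srprb (0.83). It was lower for Arl6ip6 (-0.61), Mier3 (-0.73), Sirt1 (-0.80), Cep170 (-0.75), Scd1 (-2.26), Bcl6 (-2.53), Tcf7l2 (-0.75), Bach1 (-0.71) and Cfap54 (-1.16). Within DBA/2J, the change at day 33 minus that at day 5 was 0.70 for Arl6ip6 and 0.66 for Ino80c. The change at day 13 minus that at day 5 was -0.98 for Ankrd13b, -0.78 for Hmg20b, -0.50 for Zer1, 0.71 for Kpna3, 0.48 for Mfsd14a, 0.55 for Sgpp1 and 0.54 for Rab10.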

How the results depend on the processing

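The share of genes called, in percent of those tested, is given in the order HFD against RC in DBA/2J at day 5, the difference from C57BL/6J, the difference from BALB/cJ, day 33 against day 5 and day 13 against day 5. The shares reported are 0.548%, 0.11%, 0.411%, 0.0137% and 0.0753%, which are 80, 16, 60, 2 and 11 of 14604 genes. Fitting only the libraries compared gave 0%, 0.397%, 0%, 0.0137% and 0%, and only DBA/2J libraries gave 0%, 0.0342% and 0% for the contrasts within DBA/2J. Genes with a mean log2 CPM above 2 alone gave 3.88%, 0.205%, 1.25%, 0.0178% and 2.81%. Without a filter the shares were as reported, since the filter removed 0 genes. log2(CPM + 1) gave 0.561%, 0.116%, 0.0411%, 0.0411% and 0.0753%, median-centred libraries 0.794% (25 genes higher and 91 lower), 0.11%, 0.0274%, 0.0205% and 0.192%, and robust shrinkage 0.561%, 0.11%, 0.0274%, 0.0137% and 0.0342%. Library weights gave 41%, 19.5%, 24.5%, 40.2% and 24.7%, with a weight of 4.46 for HFD replicate 4 and 0.373 to 1.99 for the other 7 libraries. The acinar level as a covariate gave 1.86%, 0.294%, 6.91%, 0.0137% and 0.0616%, and the stellate, endothelial and macrophage levels 0%, 0.11%, 0.0342%, 0.0205% and 0%. Correction for GC content and length gave 0%, 0.137%, 0.391%, 0.00685% and 0% (for the difference from BALB/cJ 52 genes higher and 5 lower, against 30 and 30). The GC gap as a covariate gave 0%, 0.0137%, 0%, 0% and 0.00685%, limma voom on recovered reads 0.623%, 0.205%, 0.452%, 0% and 0.0685%, and leaving out HFD replicates 3 and 4 together 0%, 0%, 0%, 0% and 0.00685%. Leaving out 1 of the 8 DBA/2J day 5 libraries at a time gave 0% to 11.3%, 0.00685% to 0.993%, 0% to 6.58%, 0% to 7.26% and 0% to 5.84%, with the highest shares without HFD replicates 1 or 2. The causes were not tested, except that fits to fewer libraries have fewer degrees of freedom. The planned edgeR and DESeq2 fits were not run, because the deposited unit is a log2 value, and voom stood in for them.

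Of the genes named with a change between diets, 41 were called, and each kept its direction under every alternative that included it, which was all of them except that Nyap2 was not tested among genes with a mean log2 CPM above 2. The 41 were called from the same libraries, so their kept direction was not a separate test. None of the 41 passed in the fits to the libraries compared or to DBA/2J alone, with the stellate, endothelial and macrophage covariates, under either GC setting, without HFD replicates 3 and 4, or without HFD replicate 3, HFD replicate 4 or RC replicates 1, 2 or 4, while 18 passed without RC replicate 3. The median of all genes moved by less than 0.1 under every alternative. HFD and RC libraries of DBA/2J at day 5 share 3 numbers in their titles. Deviations from the group means correlated at 0.17, 0.049 and 0.007 within these pairs, which cannot decide whether the numbers pair the mice. The labels do not explain the numbers, so they were not taken as pairs. With the number as a replicate block, in the 8 libraries alone, 0.253% of genes were called (8 higher and 29 lower), 2 of them among the 80. The lowest adjusted p by limma was 0.000466 with the block and 0.128, with 0% called, without it. With 4 mice a group and about 0.13 as the median standard error, changes of the size seen here lie close to what the design can call.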
